A study of Mus musculus with 8 samples.

Results

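The semaphorin, ephrin and guidance genes are the mouse genes whose symbols name a semaphorin of classes 3 to 7, a plexin, a neuropilin, an Eph receptor, an ephrin, a netrin, an Unc5 receptor, a Slit or a Robo. They were taken by symbol, a rule that uses no measured value, and 69 of the 27179 entries of the expression table matched, of which 68 are protein coding and 1 is the antisense transcript Plxna4os1. The set holds 20 semaphorins, 12 plexins or neuropilins (Plxna4os1 included), 14 Eph receptors, 8 ephrins, 8 netrins or Unc5 receptors and 7 Slits or Robos. C2C12 cells, an immortalised mouse myoblast line derived as a subclone, were grown on collagen and sampled as dividing myoblasts in growth medium with 10% fetal bovine serum (GM) or after 3 days in medium with 2% horse serum (3d DM), in which such cells leave the cell cycle and fuse into myotubes. By the paper's methods, GM cultures were sampled at a lower confluence than that at which cultures were switched to the 3d DM medium. State therefore cannot be told apart from cell density or time in culture. For each state there were 2 input libraries, which measured RNA, and 2 libraries of RNA precipitated with an antibody against N6-methyladenosine (m6A), the methyl mark on internal adenosines of mRNA. The labels do not say that the replicates came from separate cultures, so the p-values measure only the spread between these samples, pooled over genes of like level, which may be technical.

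Guidance molecules are read at the cell surface as attraction, repulsion or a change in adhesion. Semaphorins signal through plexins, and most of the secreted class 3 members need a neuropilin as the ligand-binding partner of the plexin. Eph receptors are receptor tyrosine kinases whose ligands, the ephrins, are tethered to the neighbouring cell and can signal in reverse. Netrins act through Dcc, neogenin and Unc5 receptors, and Slits through Robos. First described in growing axons, these families also set the shape and contacts of muscle and vessel cells: satellite cells, the stem cells of muscle, secrete Sema3a, and netrin and neogenin have been tied to myoblast fusion.

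The libraries carried the marks of their states. Myh3, the embryonic myosin heavy chain, was 1068 and 273 in GM against 33485 and 51674 in 3d DM in normalised units, Ckm, muscle creatine kinase, was 109.9 and 17.1 in GM against 1740.3 and 1996 in 3d DM, and Mki67, a marker of dividing cells, was 3586 and 3659 in GM against 446 and 760.4 in 3d DM. All 5 of 5 myotube markers were called higher in 3d DM and 3 of 3 markers of division lower. The myotube markers summed to 4517 and 1052 in GM against 81934 and 119792 in 3d DM, so the GM replicates were not alike in them. Of 4 myogenic markers 1 was called higher (Des) and 1 lower (Myf5), while Pax7 and Myod1 were not called. Endothelial markers summed to between 0 and 10.5 in a library, with Kdr, Emcn and Tie1 listed at 0 throughout, and macrophage markers to between 11.5 and 26.4, with Adgre1 at 0, and no gene of either list passed the filter on low values given below (Cd68 reached 26.4 in GM replicate 1 alone). Of 6 neuronal markers only Stmn2 was tested (1584 and 1169 in GM against 424 and 298 in 3d DM), with Rbfox3 and Snap25 at or below 1 everywhere, and of 5 Schwann cell markers only Erbb3 (216 and 67.3 in GM against 1140.5 and 1930.4 in 3d DM), and their part in the results was not tested. Among 5 fibroblast markers 2 were tested, Pdgfra and Ly6a, and neither was called; the list summed to 3135 and 560.1 in GM against 889 and 1115 in 3d DM.

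Of the 69 guidance genes, 43 were tested, having a value of 25.1 or more, which is 2 cpm of a column's sum, in 2 or more input libraries. With limma over 11406 genes and an adjusted p under 0.05, 13 of the 43 were called (30.2%), beside 17.0% of all genes tested. Higher in 3d DM were 7 (16.3%): Plxnb3, Ephb3, Sema4d, Sema3d, Ephb6, Slit2 and Ephb2, where the background was 7.01%. Plxnb3 passed the filter through the 3d DM libraries alone and could only have been called higher, as could Sema3f, which was not called; without Plxnb3 the higher genes number 6. With the level required in all 4 libraries, 6 of 38 members were higher and 6 lower, beside 422 and 828 of 10212 genes. Lower were 6 (14.0%): Sema7a, Epha2, Epha1, Sema5a, Robo1 and Sema3a, with 9.96% of all genes called in that direction. An unadjusted p under 0.05 was found for 19 of the 43 members and for 26.2% of all genes. In all 13 called genes the GM and 3d DM libraries did not overlap. Over the 43 tested members the libraries were apart with 3d DM higher in 12 (27.9%, against 16.8% of all genes) and with GM higher in 15 (34.9%, against 37.0%). The median log2 fold change (3d DM minus GM) of the tested members was -0.10, with 20 above and 23 below 0, and that of all genes was -0.22. In bulk RNA, fewer cells of a type and less RNA per cell cannot be told apart.

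The libraries differed in scale in the deposited values. Median-of-ratios factors computed from the tested genes were, on the log2 scale, 0.234 and 0.002 in GM against -0.365 and 0.14 in 3d DM, so the states overlapped and 3d DM replicate 1 stood lowest. The median log2 fold change of all genes, -0.22, was 0.03 without 3d DM replicate 1 and -0.47 without 3d DM replicate 2, and that of members 0.22 and -0.34. Relative to the typical gene, a change over all 4 libraries is about 0.22 more positive than the value given. A single entry of the table held between 24.4% and 41.3% of a column's sum. After rescaling by those factors 9 members were higher and 8 lower, and over all genes 1369 were higher and 1275 lower in place of 800 and 1136. The error estimate of the fit differed too. The limma adjusted p of Myh3 rose from 5.6e-50 to 0.00201 while its log2 fold change grew from 6.26 to 6.49. Calls gained or lost after rescaling therefore do not follow from scale alone. In none of the 13 called genes did the libraries of the states overlap, so leaving out any 1 library could not turn a direction. The calls rested on few samples. Without any 1 library there were fewer calls among the members and also among all genes. In those fits the single library left in a state was assumed to vary like the others. The smallest log2 fold changes then reached were 0.90 among the genes called higher (Ephb2) and -0.84 among those called lower (Sema3a). With no filter on low values all 69 were fitted, none was called and 17 had an unadjusted p under 0.05. Over all 27179 genes 80 were then called higher and 74 lower.

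**Figure D1:**
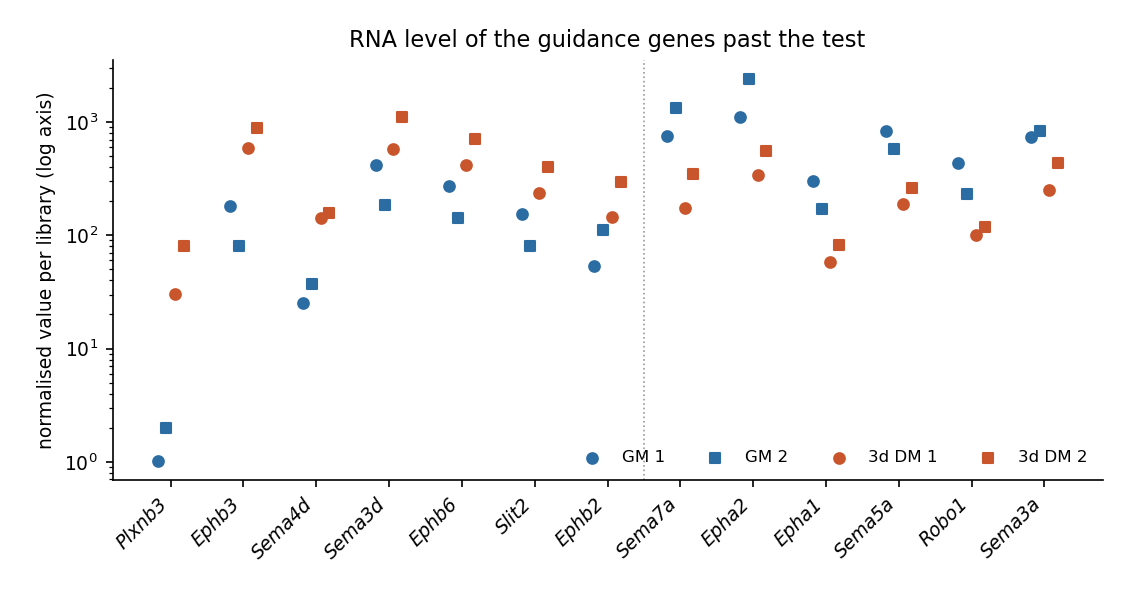
Normalised value (log axis) in each of the 2 GM (blue) and 2 3d DM (orange) input libraries, circles for replicate 1 and squares for replicate 2, for the 13 guidance genes with an adjusted p under 0.05; the dotted line parts the 7 higher from the 6 lower in 3d DM. In every gene the 2 libraries of one state lie above both libraries of the other, and Plxnb3 stands near the bottom of the scale in GM.

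Among the semaphorins, 14 of 20 were tested, 2 were called higher and 3 lower in 3d DM, beside 7.01% and 9.96% of all genes. Sema7a, the only GPI-anchored semaphorin, which binds Plxnc1 and integrins (Entrez 20361, chr9:57939596-57962865 in mm10), was 746 and 1342 in GM against 175 and 351 in 3d DM. Both 3d DM libraries were under the lower GM library (log2 fold change -2.01 ± 0.44 (SE, n = 2 per state), adjusted p = 9.3e-05). Plxnc1, its plexin, did not pass the filter, with values of 0 and 3.00 in GM against 2.48 and 2.12 in 3d DM. Sema5a, a transmembrane semaphorin with thrombospondin repeats (Entrez 20356, chr15:32244813-32696341), was 834 and 578 in GM against 188 and 263 in 3d DM, again without overlap (log2 fold change -1.64 ± 0.45 (SE, n = 2 per state), adjusted p = 0.00287). Sema3a, the prototype of the secreted class (Entrez 20346, chr5:13124822-13603485), was 739 and 831 in GM against 249 and 436 in 3d DM (log2 fold change -1.25 ± 0.44 (SE, n = 2 per state), adjusted p = 0.0326). Its GM libraries lay close together and above both 3d DM libraries.

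In the other direction, Sema4d, a membrane ligand of the B plexins (Entrez 20354, chr13:51685529-51793678), was 25.1 and 37.1 in GM against 143 and 157 in 3d DM. The replicates of each state lay near each other and far from the other state (log2 fold change 2.26 ± 0.54 (SE, n = 2 per state), adjusted p = 4.1e-04). Sema3d, another secreted class 3 member (Entrez 108151, chr5:12383161-12588953), was 421 and 187 in GM against 579.7 and 1107 in 3d DM (log2 fold change 1.51 ± 0.45 (SE, n = 2 per state), adjusted p = 0.00614). Here the higher GM library came within reach of the lower 3d DM library, and the groups did not overlap. Sema6c, a transmembrane member, fell just outside the threshold at 93.8 and 42.2 in GM against 141 and 181 in 3d DM (log2 fold change 1.33 ± 0.51 (SE, n = 2 per state), adjusted p = 0.0549) and passed it after rescaling by median-of-ratios factors (1.56, adjusted p = 0.0298).

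The semaphorins of highest level per kb of exon that were not called were Sema4c and Sema3b. Sema4c, a class 4 member that binds Plxnb2, was 978 and 503 in GM against 445 and 862 in 3d DM, with overlapping states (log2 fold change -0.18, 95% interval -1.03 to 0.68, adjusted p = 0.869), and its sign turned under rescaling. Sema3b was 769 and 237 in GM against 574 and 850.4 in 3d DM (log2 fold change 0.71, 95% interval -0.16 to 1.57, adjusted p = 0.32), and the 3d DM values lay within and just above the wide range of the GM libraries. The remaining tested semaphorins, Sema3c, Sema3e, Sema3f, Sema4b, Sema4f and Sema6a, had log2 fold changes from -1.02 (Sema4b) to 1.02 (Sema3f), none past the threshold.

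The make-up of the class differed between the states within each library, by a measure that no scaling between libraries can alter and that was chosen after the values were seen. Of the summed semaphorin level per kb of exon, Sema7a made up 14.6% and 36.4% in GM against 6.12% and 8.16% in 3d DM. Sema3a made up 17.2% and 39.6% in GM against 9.25% and 9.93% in 3d DM of the class 3 level, and Sema3d 8.55% and 7.78% in GM against 18.8% and 22.0% in 3d DM. In each of the 3 shares the libraries of the states were apart, while class 4 as a whole held 22.1% and 23.1% in GM against 20.6% and 23.3% in 3d DM of the semaphorin level.

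Plexins and neuropilins are the receptors of the semaphorins, and 1 of 9 tested members was called, beside 17.0% of all genes. Plxnb3, a plexin that binds Sema5a (Entrez 140571, chrX:73756556-73772510), was 1.02 and 2.01 in GM against 30.5 and 80.7 in 3d DM. It was near 0 in both GM libraries and low in 3d DM, with a log2 fold change of 4.37 that depends on the pseudocount (5.02 with 0.1 and 3.30 with 4). No p-value is given for it, since its GM values were under the filter and the filter fixed the direction. Plxnb2, the most abundant plexin per kb, was 2895 and 2614 in GM against 2914 and 3830.3 in 3d DM (log2 fold change 0.28, 95% interval -0.52 to 1.08, adjusted p = 0.752). Plxna1, a signalling partner of the neuropilins, was 2977 and 2030.1 in GM against 971 and 1617 in 3d DM, apart between the states but outside the threshold (log2 fold change -0.97 ± 0.42 (SE, n = 2 per state), adjusted p = 0.0966). Nrp1, which binds Sema3a, was 476 and 481 in GM against 239 and 365 in 3d DM (log2 fold change -0.70, 95% interval -1.58 to 0.19, adjusted p = 0.35).

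Plxnb2 and Plxna1 together held most of the plexin level in every library, and their balance differed between the states, again by a measure chosen after the values were seen. Plxnb2 was 46.4% and 52.3% in GM against 63.0% and 59.7% in 3d DM of the summed plexin level per kb and Plxna1 34.7% and 29.5% in GM against 15.3% and 18.3% in 3d DM. Plxna2, Plxna3, Plxnb1, Plxnd1 and Nrp2 had log2 fold changes from -0.37 (Nrp2) to 0.83 (Plxnb1), none past the threshold. After median-of-ratios rescaling Plxna1 (-0.74, adjusted p = 0.0436) and Plxnb1 (1.06, adjusted p = 0.044) passed it. The change of Plxna1 was smaller in size than before and that of Plxnb1 larger, and the error estimate also differed.

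**Figure D2:**
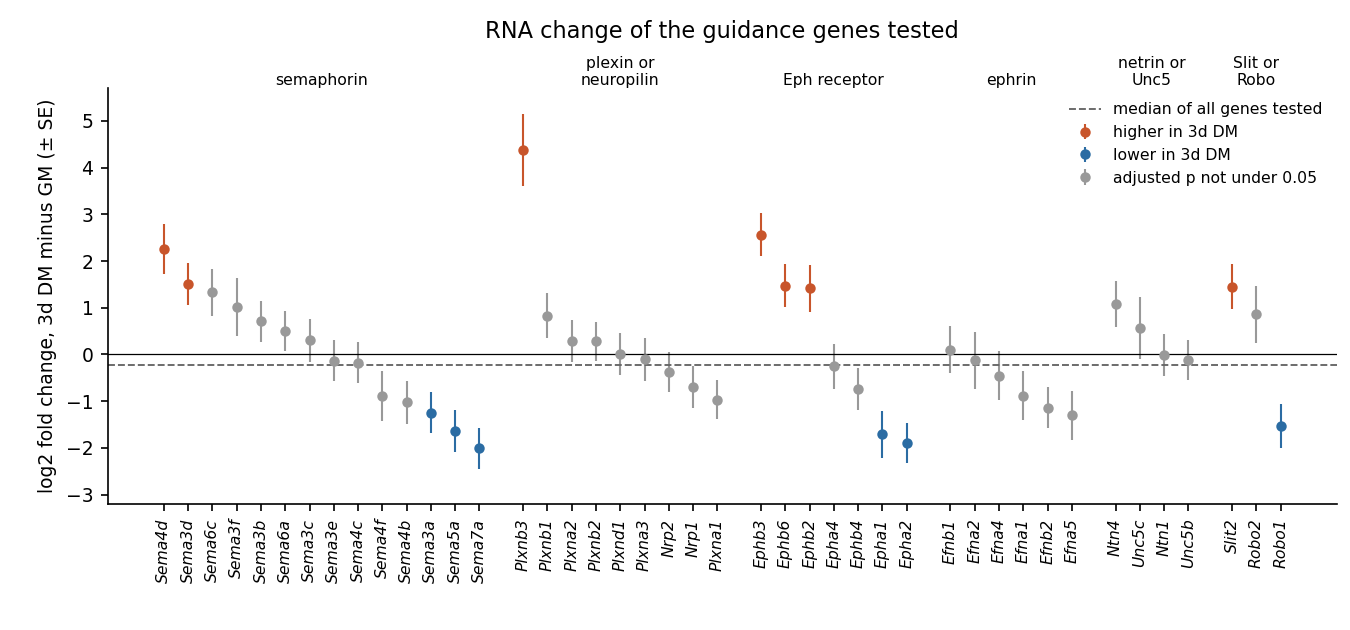
Log2 fold change of RNA (3d DM minus GM, limma on log2 of the value plus 1, bars are SE) for the 43 guidance genes tested, by family and ordered by size; orange and blue mark the 7 and 6 genes with an adjusted p under 0.05 and the dashed line the median of all genes, -0.22. Eph receptors spread in both directions, and 4 of the 6 ephrins lie below the dashed line.

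Eph receptors held 5 of the 13 calls, in opposite directions for the classes: 3 EphB receptors were higher in 3d DM and 2 EphA receptors lower, of 7 Eph receptors tested. Of all genes, 7.01% were called higher and 9.96% lower, and 7 receptors are few for a comparison of shares. Epha2 (Entrez 13836, chr4:141301221-141329384), the most abundant Eph receptor in GM, was 1097 and 2393 in GM against 339 and 559 in 3d DM. The 3d DM values lay well under both GM libraries, which themselves differed (log2 fold change -1.89 ± 0.43 (SE, n = 2 per state), adjusted p = 1.6e-04). Epha1 (Entrez 13835, chr6:42358487-42373314) was 304 and 172 in GM against 57.8 and 82.9 in 3d DM (log2 fold change -1.71 ± 0.50 (SE, n = 2 per state), adjusted p = 0.00559). The remaining EphA receptor tested, Epha4, was 142 and 257 in GM against 155 and 166 in 3d DM and overlapped between the states (log2 fold change -0.25, 95% interval -1.19 to 0.69, adjusted p = 0.822).

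Of the EphB receptors, Ephb3 (Entrez 13845, chr16:21204620-21223309) was 180.1 and 80.3 in GM against 584 and 879 in 3d DM, with the largest change among the Eph receptors tested (log2 fold change 2.56 ± 0.46 (SE, n = 2 per state), adjusted p = 5.9e-07). Ephb6, a member whose kinase domain is inactive (Entrez 13848, chr6:41603834-41620509), was 270.4 and 142 in GM against 416 and 712 in 3d DM (log2 fold change 1.47 ± 0.46 (SE, n = 2 per state), adjusted p = 0.0103). Ephb2 (Entrez 13844, chr4:136647536-136836326) was 53.3 and 110.4 in GM against 144 and 296 in 3d DM (log2 fold change 1.42 ± 0.50 (SE, n = 2 per state), adjusted p = 0.03). After median-of-ratios rescaling its change was larger, 1.65, and its adjusted p was 0.0518. In all 3 both 3d DM libraries exceeded both GM libraries. Ephb4, the receptor best known from veins, was 500.4 and 421 in GM against 245 and 312 in 3d DM, lower in 3d DM in each library but not called (log2 fold change -0.73, 95% interval -1.62 to 0.16, adjusted p = 0.318).

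Within a library, and again by a measure chosen after the values were seen, EphB receptors made up 35.8% and 18.2% in GM against 68.2% and 69.0% in 3d DM of the Eph level per kb. Epha2 alone accounted for 45.5% and 70.9% in GM against 21.4% and 22.8% in 3d DM. Ephb3 went from 4.82% and 1.53% in GM to 23.8% and 23.1%, and Ephb6 was 11.6% and 4.35% in GM against 27.3% and 30.1% in 3d DM. The Eph transcripts of GM were thus mostly EphA and those of 3d DM mostly EphB in these libraries, with the GM replicates less alike than those of 3d DM.

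**Figure D3:**
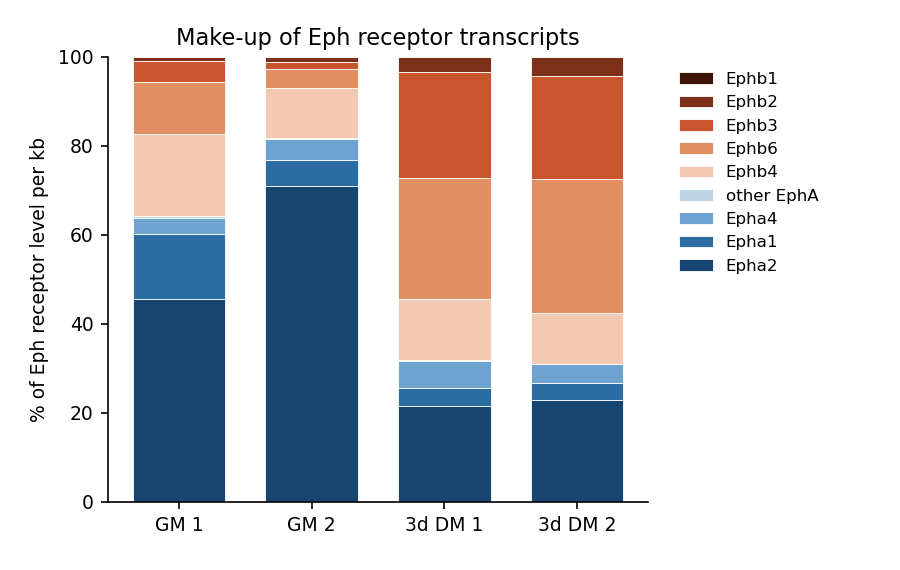
Share of the summed Eph receptor level per kb of exon (y axis, %) held by each receptor in each input library, EphA receptors in blue and EphB receptors in orange. The EphB part is 35.8% and 18.2% in the GM libraries and 68.2% and 69.0% in the 3d DM libraries.

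No ephrin passed the threshold, of 6 tested, where 17.0% of all genes were called. Their median log2 fold change was -0.67, beside -0.22 over all genes. Efnb2, the ephrin of highest level per kb and a ligand of EphB receptors, was 668 and 946 in GM against 297 and 439 in 3d DM. Its GM libraries lay above both 3d DM libraries (log2 fold change -1.14 ± 0.44 (SE, n = 2 per state), adjusted p = 0.0572). Efna5, a GPI-anchored ligand of EphA receptors, was 153 and 149 in GM against 56.1 and 65.7 in 3d DM with tight replicates (log2 fold change -1.30 ± 0.52 (SE, n = 2 per state), adjusted p = 0.0647). After rescaling by the median-of-ratios factors Efna5 was called (-1.07, adjusted p = 0.0344) and Efnb2 was not (-0.91, adjusted p = 0.0621). Both changes were smaller in size than before, so the Efna5 call did not come from a larger change.

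Efna4, second to Efnb2 in level per kb, was 109 and 93.3 in GM against 73.8 and 73.6 in 3d DM (log2 fold change -0.45, 95% interval -1.48 to 0.58, adjusted p = 0.672). Efna1, Efna2 and Efnb1 had log2 fold changes of -0.88, -0.12 and 0.10. Efna3 and Efnb3 stayed under the filter.

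Netrins and Unc5 receptors gave no call among 4 tested, where 17.0% of all genes were called. Ntn1, a secreted netrin, was 580.3 and 511 in GM against 431 and 683 in 3d DM, a difference near 0 whose sign turned under rescaling (log2 fold change -0.01, 95% interval -0.87 to 0.86, adjusted p = 0.996). Unc5b, a receptor of netrins, was 619 and 1114 in GM against 664 and 895 in 3d DM (log2 fold change -0.11, 95% interval -0.96 to 0.74, adjusted p = 0.921), with a sign that also turned. Ntn4 was 137 and 66.3 in GM against 172 and 239.8 in 3d DM, higher in 3d DM in each library but not called (log2 fold change 1.08, 95% interval 0.12 to 2.05, adjusted p = 0.125). After the same rescaling Ntn4 was called (1.31, adjusted p = 0.0353). Unc5c was at or below 34.5 throughout.

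In the Slit and Robo pair the ligand and a receptor were called in opposite directions. Slit2, a secreted ligand (Entrez 20563, chr5:47981291-48307735), was 155 and 80.3 in GM against 234 and 404 in 3d DM (log2 fold change 1.45 ± 0.48 (SE, n = 2 per state), adjusted p = 0.0177). Robo1, its receptor (Entrez 19876, chr16:72027518-73047491), was 432 and 233 in GM against 101 and 119 in 3d DM (log2 fold change -1.53 ± 0.48 (SE, n = 2 per state), adjusted p = 0.0113). Neither gene's libraries overlapped. Robo2 was 52.9 and 12.1 in GM against 42.2 and 52.4 in 3d DM, with the lowest and the highest value both in GM (log2 fold change 0.86, 95% interval -0.34 to 2.05, adjusted p = 0.406).

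The 26 members under the filter are given as values only. Listed at 0 in all 4 libraries (values under 0.005) were 9: Epha5, Epha6, Epha8, Epha10, Robo3, Robo4, Slit3, Unc5d and Plxna4os1. The other 17, Efna3, Efnb3, Epha3, Epha7, Ephb1, Ntn3, Ntn5, Plxna4, Plxnc1, Sema3g, Sema4a, Sema4g, Sema5b, Sema6b, Sema6d, Slit1 and Unc5a, reached at most 42.1 in any library. Epha7, an Eph receptor known from differentiating muscle precursors, was 13.6 and 14.0 in GM against 1.54 and 4.56 in 3d DM. Slit1 was 0 and 0 in GM against 4.84 and 25.2 in 3d DM, and Ntn5 was 2.11 and 1.01 in GM against 16.7 and 22.9 in 3d DM. These values are too low for a statement on a change.

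Genes that act with these families were read from the same fit. Of 21 co-receptors and regulators 10 were tested, with 1 called higher and 2 lower. L1cam, an adhesion molecule that partners with neuropilin 1, was 902 and 579 in GM against 143 and 186 in 3d DM (log2 fold change -2.14 ± 0.45 (SE, n = 2 per state), adjusted p = 4.3e-05). Met, the receptor of hepatocyte growth factor, which can associate with B plexins, was 1039.6 and 1202 in GM against 308 and 473 in 3d DM (log2 fold change -1.55 ± 0.44 (SE, n = 2 per state), adjusted p = 0.00381), and Rgma, a ligand of neogenin, was 178 and 48.2 in GM against 213 and 304 in 3d DM (log2 fold change 1.44 ± 0.49 (SE, n = 2 per state), adjusted p = 0.0218). Neo1, neogenin itself, was 1645 and 1079 in GM against 713 and 926 in 3d DM and was not called (adjusted p = 0.295). Dcc, Kdr and Tyrobp were under 1 in every library.

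Of 59 intracellular effectors 54 were tested, with 6 called higher and 5 lower (11.1% and 9.26%, beside 7.01% and 9.96% of all genes). Of the 6 higher, 2 passed the filter through the 3d DM libraries alone, which fixed their direction. One of these was Ablim3, an actin-binding LIM protein, at 19.1 and 6.04 in GM against 873 and 995 in 3d DM, given as values only. Enah, an actin regulator of the Ena/VASP family, was 259.6 and 238 in GM against 859 and 1349 in 3d DM (log2 fold change 2.11 ± 0.44 (SE, n = 2 per state), adjusted p = 3.2e-05). Srgap1, a GTPase-activating protein that binds Robo1, was 33.8 and 15.1 in GM against 94.4 and 103 in 3d DM (log2 fold change 2.08 ± 0.57 (SE, n = 2 per state), adjusted p = 0.00305).

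Called lower were the small GTPase Rnd1, a partner of plexins, at 92.1 and 227 in GM against 17.7 and 52.6 in 3d DM (log2 fold change -2.20 ± 0.54 (SE, n = 2 per state), adjusted p = 6.5e-04), and Limk1, the kinase that phosphorylates cofilin, at 766 and 687 in GM against 143 and 307 in 3d DM (log2 fold change -1.79 ± 0.45 (SE, n = 2 per state), adjusted p = 8.8e-04). Cfl1, cofilin 1, which severs actin filaments, was 15827 and 14172 in GM against 4078 and 5575 in 3d DM (log2 fold change -1.65 ± 0.40 (SE, n = 2 per state), adjusted p = 5.1e-04). Each of these was lower in both 3d DM libraries. Vav3 and Dpysl2 were also called lower, and Ablim1 and Fyn higher.

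m6A peaks were found on 38 of the 69 members, all of them among the 43 tested (88.4%, beside 75.1% of all tested genes), and 27 members had a peak in all 4 lists (62.8%, beside 42.0%). A peak is a stretch where the peak caller found more immunoprecipitated than input RNA at a P value of at most 0.05, and the fold is the ratio of the former to the latter. The tested members had a median exon length of 5.97 kb, against 3.50 kb for all tested genes, and a median RNA value of 369.7, against 292, and the part of length and level in the difference was not tested. The 5 tested members without a peak, Epha1, Plxna3, Plxnb3, Robo2 and Unc5c, had a median RNA value of 39.9, and the 38 with a peak 394.

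Members with a peak numbered 33 and 31 in the GM lists and 36 and 30 in the 3d DM lists, so the lists overlapped (32.0 ± 1.41 and 33.0 ± 4.24, SD, n = 2, two-sided exact permutation test, p = 1.00, where 0.33 is the smallest p that 2 against 2 allows). Distinct peaks on members numbered 72 and 57 for the GM lists against 67 and 53 (64.5 ± 10.6 and 60.0 ± 9.90, exact p = 0.67). Lines from the 4 lists merged into 109 peaks on members, of which 68 (62.4%) touched a 3′ untranslated region, 56 (51.4%) coding sequence and 13 (11.9%) a 5′ untranslated region. Over all 19516 merged peaks these shares were 56.8%, 66.9% and 6.64%. More of the members' peaks were in 1 list alone, 57 of 109 (52.3%, against 37.9%), and 29 (26.6%, against 30.6%) were in all 4. These shares were not tested.

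The 6 member peaks of highest mean fold among those in all 4 lists were on Sema4b, Efnb2, Sema4c, Sema6a, Sema3a and Sema6c, 5 of them on semaphorins. Semaphorins were 10 of the 27 members with a peak in all 4 lists. To show the sequence that such peaks cover, 25 bases around the DRACH motif nearest the peak's centre are printed for 5 of them, 5′ to 3′ on the transcript strand with the motif in capitals. DRACH is the sequence context in which the methyltransferase complex places m6A: A, G or T, then A or G, then A, then C, then A, C or T, with the third base methylated. The assay does not resolve which base carries the mark.
Sema4b: cccagttcccGGACTtctccagcct
Efnb2: cttatcacttGGACCtcgggttcag
Sema4c: gaggtggtcgGAACTcaaatgccaa
Sema3a: gcttagataaTAACTggaaaaaatg
Sema6c: tcgccgctccGGACTcccgcggact

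In mm10 these are the Sema4b window at chr7:80225903-80225927 (+ strand), the Efnb2 window at chr8:8620200-8620224 (- strand), the Sema4c window at chr1:36549681-36549705 (- strand), the Sema3a window at chr5:13599643-13599667 (+ strand) and the Sema6c window at chr3:95173503-95173527 (+ strand). The Sema4c motif lies in coding sequence, at -151 nucleotides from its end, and the others in 3′ untranslated regions, between 55 (Sema3a) and 583 (Sema4b) nucleotides past the coding sequence. The Sema4b and Sema6c windows hold GGACT, the commonest form of the motif in mammals, the Efnb2 window GGACC, the Sema4c window GAACT and the Sema3a window TAACT. All 29 shared member peaks held a DRACH match on the transcript strand, as did 99.9% of the 5618 shared peaks that could be placed on an annotated transcript, which is of little weight for stretches of this length (median 658 and 628 nucleotides). Matches came at 22.5 per kb in member peaks and 22.8 per kb in all, and those of the same pattern with C before A at 18.3 and 19.0 per kb. GGACT was in 20 of 29 (69.0%) against 57.7%.

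The Sema4b peak (chr7:80225427-80226411, 3′ untranslated region) had the highest mean fold of the shared peaks on guidance genes and ranked 5 of the 5976 peaks shared by all 4 lists, with folds of 44.2 and 24.4 in GM against 74.1 and 41.8 in 3d DM. Both states were high in it and overlapped (log2 difference 0.76 ± 1.05, adjusted p = 0.999). Folds at the main Efnb2 peak (chr8:8619471-8620938), across the end of the coding sequence, were 9.87 and 10.4 in GM against 10.4 and 23.4 in 3d DM. Sema4c (chr1:36549089-36550289) had folds of 10.9 and 11.7 in GM against 12.0 and 7.37 in 3d DM, and Sema3a (chr5:13597545-13600273) of 13.0 and 8.93 in GM against 10.1 and 5.01 in 3d DM. In these 3 the replicates of 3d DM spanned a range that reached into or past the GM values. Sema6a had folds of 10.1 and 11.5 in GM against 10.7 and 6.81 in 3d DM.

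**Figure D4:**
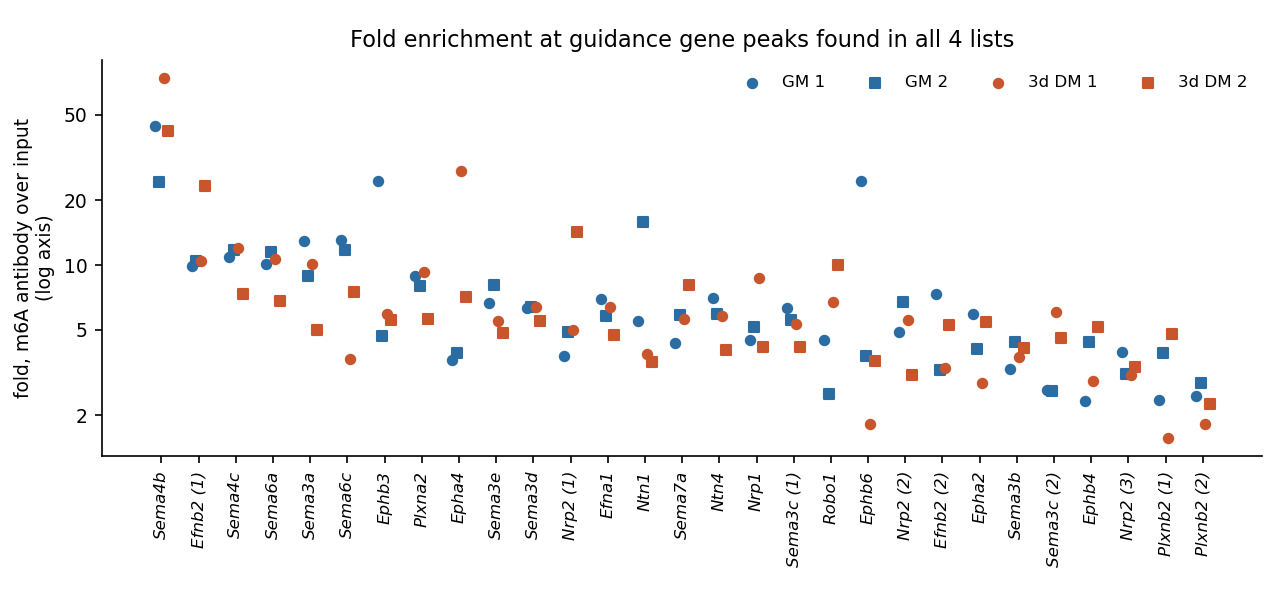
Fold of m6A antibody over input RNA (log axis) at the 29 guidance gene peaks with a line in all 4 lists, ordered by geometric mean fold; blue is GM, orange 3d DM, circles replicate 1 and squares replicate 2, and numbers in brackets count the peaks of one gene. Sema4b lies above the rest, and several peaks (Ephb3, Ephb6, Epha4, Ntn1) have 1 list far from the other 3.

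Whether the fold at a member's shared peak changed with differentiation was tested with limma on the log2 fold over the 5976 shared peaks. A peak missing from any list was left out, so the test does not cover peaks gained or lost between the states. No shared member peak was called, and no shared peak of the series (0 of 5976, 0%), with 208 peaks and 6 of the 29 member peaks at an unadjusted p under 0.05. Of the members, 3 of these lay higher in 3d DM (10.3%, beside 1.29% of all shared peaks) and 3 lower (10.3%, beside 2.19%), and each had an adjusted p of 0.999. The median log2 difference was -0.22 over the 29 member peaks, with 10 above and 19 below 0, and -0.10 over all shared peaks.

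The 3 with the higher folds in 3d DM were on Epha4, Robo1 and Sema3c. Epha4 (chr1:77373437-77374794) had folds of 3.62 and 3.91 in GM against 27.5 and 7.10 in 3d DM (log2 difference 1.89 ± 0.63, adjusted p = 0.999). Robo1 (chr16:73035880-73044361) had 4.50 and 2.51 in GM against 6.70 and 10.0 in 3d DM (log2 difference 1.28 ± 0.48, adjusted p = 0.999), while its RNA was lower in 3d DM. The far peak in the Sema3c 3′ untranslated region (chr5:17729283-17729731) had 2.62 and 2.60 in GM against 6.06 and 4.59 in 3d DM.

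The 3 with the lower folds were on Ephb6, Ntn1 and Sema6c. Ephb6 (chr6:41620307-41620509) had 24.5 and 3.77 in GM against 1.83 and 3.59 in 3d DM (log2 difference -1.91 ± 0.69, adjusted p = 0.999), where a single GM list was far above the rest and Ephb6 RNA was higher in 3d DM. In GM replicate 1 the shared Ephb3 peak had the very same fold, 24.5, and the same peak p-value. Read numbers are unknown, and the reason for the equal values was not tested. Ntn1 (chr11:68212630-68213248) had 5.52 and 15.9 in GM against 3.84 and 3.55 in 3d DM, again with 1 high GM list. Sema6c (chr3:95173101-95173875) had 13.1 and 11.7 in GM against 3.66 and 7.52 in 3d DM, with both GM lists above both 3d DM lists (log2 difference -1.24 ± 0.57, adjusted p = 0.999). The part of the RNA level in these folds was not tested.

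Peaks present in both lists of one state and neither of the other were few. Slit2 was the only member with a peak in both 3d DM lists and neither GM list (1 of 38 members with a peak, 2.63%, beside 2.31% of all genes with a peak), and no member had the reverse (0 of 38, beside 3.56%). Its peaks were at different places in the 2 lists, 3 in replicate 1, among them chr5:47984202-47984278 in the 5′ untranslated region with a fold of 8.47, and 1 in replicate 2, chr5:48304072-48304313 at the end of the coding sequence with a fold of 4.80. Slit2 RNA was also higher in 3d DM, and its part in the result was not tested.

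By single peak, 5 of the 109 member peaks were in both GM lists and neither 3d DM list (4.59%, beside 3.83% of all merged peaks). They lay in coding sequence on Epha2 (chr4:141308470-141316663, folds 2.93 and 2.80), Robo1 (chr16:72742216-72742305, 7.44 and 3.76) and Sema4b (chr7:80224800-80225002, 2.24 and 8.61). The other two were in the 3′ untranslated regions of Nrp2 (chr1:62795988-62796383, 5.25 and 5.09) and Sema5a (chr15:32696072-32696311, 3.50 and 3.54). The RNA of Epha2, Robo1 and Sema5a was itself called lower in 3d DM. Sema4b RNA was 332 and 418 in GM against 151 and 222 in 3d DM, without overlap but not called. The part of the RNA level in these peaks was not tested. In both 3d DM lists alone was 1 peak (0.917%, beside 2.72%), in the Ephb2 3′ untranslated region (chr4:136654682-136655010), with folds of 2.50 and 17.5. Ephb2 RNA was itself higher in 3d DM, and its part was not tested.

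The place of the shared member peaks on their transcripts was measured from the end of the coding sequence, near which m6A is known to be dense. The midpoint of 12 of 29 (41.4%) was within 200 nucleotides of it, beside 29.5% of the 5618 shared peaks that could be placed, and counted in nucleotides with negative values before the end the median midpoint was at 118 for members and at -147 for all. The difference was not tested. Farthest upstream were peaks on Plxnb2 and Nrp2, at -4568 and -2846, and farthest downstream those on Sema3c and Nrp2, at 1754 and 1517.

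**Figure D5:**
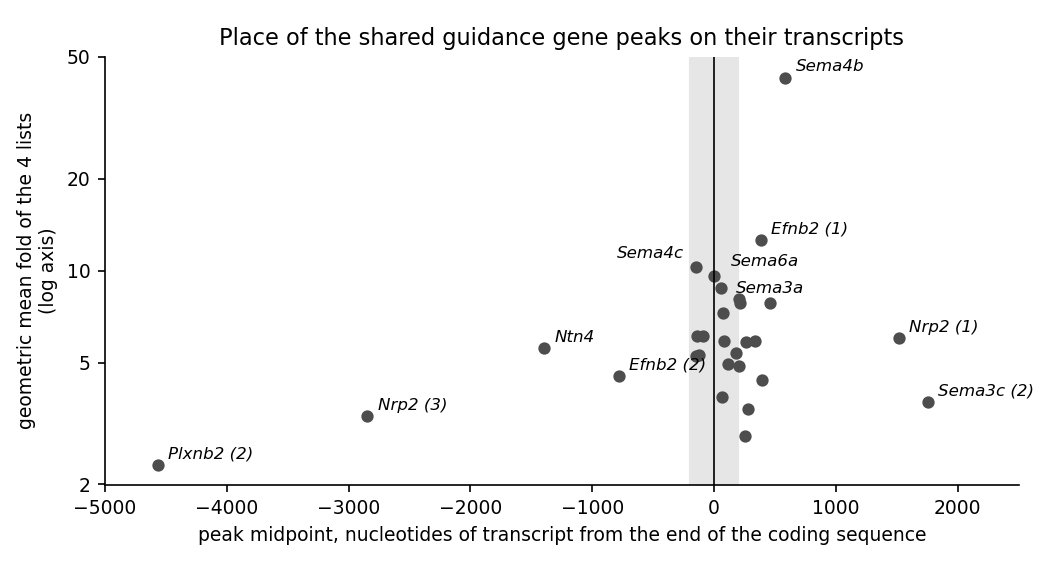
Midpoint of each of the 29 shared guidance gene peaks, in nucleotides of transcript from the end of the coding sequence (x axis, negative is upstream), against the geometric mean of the 4 folds (y axis, log); the grey band spans 200 nucleotides on each side. Of the 29 points 12 lie in the band, and Sema4b, the highest, lies past it.

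Peak numbers differed between the members. Nrp2 had the most distinct peaks, 4 and 6 in GM against 7 and 4 in 3d DM. Plxna1 had 5 and 3 in GM against 2 and 3 in 3d DM, Robo1 4 and 4 in GM against 4 and 1 in 3d DM and Sema5a 4 and 2 in GM against 1 and 0 in 3d DM. The ranges of the states overlapped in Nrp2, Plxna1 and Robo1, and did not in Sema5a, whose RNA was lower in 3d DM. Sema4d, by contrast, had 1 peak in 1 list, and Ephb4 and Sema7a had 1 peak in each list.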

How the data were processed

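Values were taken from the deposited files for 4 input and 4 immunoprecipitated libraries, grouped by the labels. The authors trimmed adaptors, aligned reads to mm10 with HISAT2 (2.1.0), ran exomePeak on every sample with its paired input, and handled gene values with edgeR. The deposited expression table holds a normalised signal with nearly equal column sums, labelled TMM (trimmed mean of M values), in which the values of a state appear to have been adjusted together, so that SD and p describe adjusted values. The files hold no read numbers, so depth is unknown and no counting error is given. Each deposited peak line has a p-value and a fold, which is a ratio (antibody-bound RNA over input). The authors' peak starts count from 0 and are printed from 1.

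The table holds no counts, so no count test was run. For expression, limma (3.58.1, R 4.3.3) was fitted to log2(value + 1), its variance prior following mean intensity, with p-values adjusted over 11406 genes (Benjamini-Hochberg, threshold 0.05). In the main fit standard errors of expression came wholly from the trend over genes (the prior had infinite degrees of freedom). A gene's own replicates thus had no weight in them. Lines on one strand sharing at least 1 bp were merged, and of several lines in a list the one of lowest p-value gave the fold. Levels per kb used GENCODE M21 exon lengths, and gene places RefSeq GRCm38.p6. Sequences were read from the GRCm38.p6 genome and found again in the GENCODE M21 transcripts. The limma fits were tested on simulated data. Genes named with values are the called members, the 2 of highest level per kb in each family among the rest, fixed ligand and receptor pairs, the 4 most changed pathway genes in each direction, peaks in both lists of 1 state alone and the 6 shared peaks of highest fold; the other genes named were chosen after their values were seen. Members and lists were chosen with earlier results of these data known. Calculations used Python 3.11.15, pandas 2.3.3, scipy 1.17.1, samtools 1.23.1 and matplotlib 3.10.9.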

Additional observations from a re-analysis of the deposited data

How the results depend on the processing

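The counts of guidance genes called higher and lower in 3d DM (7 and 6) stayed within 1.5 times under pseudocounts of 0.1 and 4, both stricter filters (6 and 6, Plxnb3 no longer tested), limma without the trend (8 and 7) and rescaling by median-of-ratios (9 and 8) or trimmed-mean factors (10 and 8). With no filter on low values both were 0, beside 80 higher and 74 lower of 27179 genes. When 1 library was left out both counts fell, as did those over all genes. The median log2 fold change of members, -0.10, then ran from -0.40 to 0.30, and the cause was not tested. Fitting the replicate number as a replicate block gave 3 higher (Plxnb3, Ephb3, Sema4d) and 4 lower (Sema7a, Epha2, Epha1, Sema5a), beside 593 and 705 of 11406 genes. The numbers share only a label: same-numbered libraries deviated together with a correlation of 0.29 for RNA and 0.129 for peaks, from 2 pairs, which does not establish a pairing. At shared peaks no member was called under the block or any other alternative (0 of 29 each time). Of 471 values of 37 named genes under the alternatives, 91 lost a call, 5 gained one and 15 turned sign. Under median-of-ratios and trimmed-mean rescaling these were Ntn1 (0.23 and 0.23), Sema4c (0.05 and 0.06) and Unc5b (0.12 and 0.13). Without 1 library the sign turned within these ranges: Epha4 -0.68 to 0.18, Ntn1 -0.34 to 0.33, Robo2 -0.17 to 1.88, Sema3b -0.14 to 1.56, Sema4c -0.66 to 0.30 and Unc5b -0.53 to 0.32. The difference in members with a peak (3d DM minus GM, 1.0) was -3.5 at a p-value of at most 1e-05 and -1.5 at a fold of at least 4, and ran from -2.0 to 4.0 without 1 list, and that in distinct peaks (-4.5) from -12.0 to 3.0. Depth is unknown, so low members cannot be told from absent ones.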
